A study of Mus musculus with 2 samples.

Results

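The 10 genes Fosb, Jun, Junb, Egr1, Egr3, Btg2, Ier3, Klf2, Zfp36 and Dusp1 were described in mouse kidney as a group of immediate early response genes. They were taken by name, as the named probes of these genes in the value table of the series. All 10 were found, with 1 probe each, among 9985 named genes measured in both arrays. Total kidney RNA came from 1 Mxi1 +/+ mouse, the control, and 1 mouse labelled Mxi1 -/-. The MXI1 protein pairs with MAX and opposes MYC, and the Mxi1 probe still read above the array median in the library labelled Mxi1 -/-. Each was read on 1 single-colour CodeLink array, and both samples carry the mark 1Y. The sources used here do not state the strain, the sex, how the Mxi1 allele was made or how the animals were handled before dissection.

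Immediate early genes are transcribed within minutes of a stimulus, from factors that already sit in the cell and need no new protein. Growth factors, stretch, ischemia, stress hormones and the act of removing a tissue can all raise them, and most of their mRNAs decay quickly. Many encode transcription factors (the FOS and JUN families, the EGR zinc finger factors and the Krüppel-like factor KLF2). Others act as brakes on the same signals, such as the phosphatase DUSP1 and the mRNA-decay factor tristetraprolin, the product of Zfp36. In the kidney they are known as early markers of injury.

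Classic immediate early promoters carry short binding sites for the factors that relay a stimulus, so the 250 bases before the start of each gene were searched on both strands in RefSeq sequences (GRCm38.p6). Promoter sequences of 8 members, all but Egr1 and Egr3, were matched there. The motifs were the serum response element core (CArG box), the cyclic AMP response element TGACGTCA, the AP-1 site TGACTCA, the AP-1-like site TGACATCA known from the Jun promoter, the EGR site GCGNGGGCG and the E-box CACGTG of the MYC and MAX network. None of the matches in the members overlapped another. The 4 promoters below are shown because each holds a site of a factor that relays a stimulus or, in Jun, of its own product: Jun (chr4:95052223-95052472, minus strand), Btg2 (chr1:134079156-134079405, minus strand), Zfp36 (chr7:28379229-28379478, minus strand) and Dusp1 (chr17:26508473-26508722, minus strand). They are written 5′ to 3′ in the direction of the gene, with motif matches in capitals.
Jun: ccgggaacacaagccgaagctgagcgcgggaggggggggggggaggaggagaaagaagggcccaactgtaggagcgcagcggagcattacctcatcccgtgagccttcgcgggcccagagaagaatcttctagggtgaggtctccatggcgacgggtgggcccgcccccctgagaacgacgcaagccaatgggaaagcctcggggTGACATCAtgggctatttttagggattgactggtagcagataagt
Btg2: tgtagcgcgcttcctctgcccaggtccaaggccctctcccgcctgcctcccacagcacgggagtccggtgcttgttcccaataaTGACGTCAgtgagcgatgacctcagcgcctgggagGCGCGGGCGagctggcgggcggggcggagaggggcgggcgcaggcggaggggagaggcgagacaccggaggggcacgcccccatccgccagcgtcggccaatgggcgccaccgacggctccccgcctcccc
Zfp36: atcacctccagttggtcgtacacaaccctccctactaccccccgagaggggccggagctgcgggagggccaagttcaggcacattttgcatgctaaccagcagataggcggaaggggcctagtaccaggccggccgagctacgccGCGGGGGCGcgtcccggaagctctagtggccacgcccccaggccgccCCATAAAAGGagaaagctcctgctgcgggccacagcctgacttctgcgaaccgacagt
Dusp1: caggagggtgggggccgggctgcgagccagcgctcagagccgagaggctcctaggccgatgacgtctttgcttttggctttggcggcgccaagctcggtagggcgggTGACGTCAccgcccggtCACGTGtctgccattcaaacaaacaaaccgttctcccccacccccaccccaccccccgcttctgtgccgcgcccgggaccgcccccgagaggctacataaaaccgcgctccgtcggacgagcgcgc

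In Jun the capitals mark TGACATCA, from -45 to -38 relative to the first transcribed base. Btg2 holds the cyclic AMP response element from -166 to -159 and an EGR site from -131 to -123. Zfp36 holds an EGR site from -105 to -97 and the CArG box CCATAAAAGG from -58 to -49. Dusp1 holds the cyclic AMP response element from -143 to -136 and the E-box from -126 to -121. An EGR site was also found in the promoters of Fosb and Klf2, so 4 of the 8 promoters had one, against 4.70% of all 32851 promoter windows searched. Apart from its open position that motif is all G and C, and these 4 promoters are 64.8% to 73.2% GC. No comparison with windows of like GC content was made. The promoters of Junb and Ier3 held none of the motifs. The cyclic AMP response element was in 2 of the 8 (1.55% of all windows), the CArG box in 1 (1.47%), TGACATCA in 1 (2.93%), the E-box in 1 (6.02%) and TGACTCA in none (4.46%). The matches are letters in a window and were not tied to the readings of the genes.

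Most of the members read lower in the Mxi1 -/- kidney, but by small amounts. Of the 10, 8 were lower and 2 higher, where 55.5% of all measured genes were lower by any size. The members were chosen with earlier results of these data known, so such comparisons, here and below, are not independent of these data. The median log2 difference, Mxi1 -/- minus Mxi1 +/+, was -0.28 over the members and -0.05 over all measured genes. Each array was first centred on its median log2 intensity. With 1 mouse per genotype, no spread between animals exists, no p-value was computed, and whether the genotypes overlap cannot be known. The only error available is technical, namely how far the log2 differences of 2 probes for the same gene lie apart. As a standard deviation per probe it was 0.17 over 41 genes whose pair reads no lower than the median over all probes (called the median level here). It was 0.49 over 18 genes below that level but above the noise floor in both arrays. Animals, dissections and hybridizations add spread that it does not hold, and the number of arrays limits the precision.

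A single member passed a 2-fold line, and that call rests on a reading below the noise floor. The floor, 3 times the root mean square of an array's values below 0, was 0.102 in Mxi1 +/+ and 0.156 in Mxi1 -/-. Among all measured genes 11.4% were past 2-fold in either direction, 5.77% higher and 5.59% lower. In both arrays 9 members read above the floor, and none of the 9 reached 2-fold. At 1.5-fold the count was 2 lower members, Btg2 and Egr3, and no higher member, where 11.9% of all measured genes were at least 1.5-fold lower. Both lie below the median level, where 20.8% of genes were at least 1.5-fold lower. Among the 6 members at or above that level, Fosb, Jun, Ier3, Klf2, Zfp36 and Dusp1, none passed 1.5-fold in either direction, against 7.67% of the 5737 genes there.

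**Figure D1:**
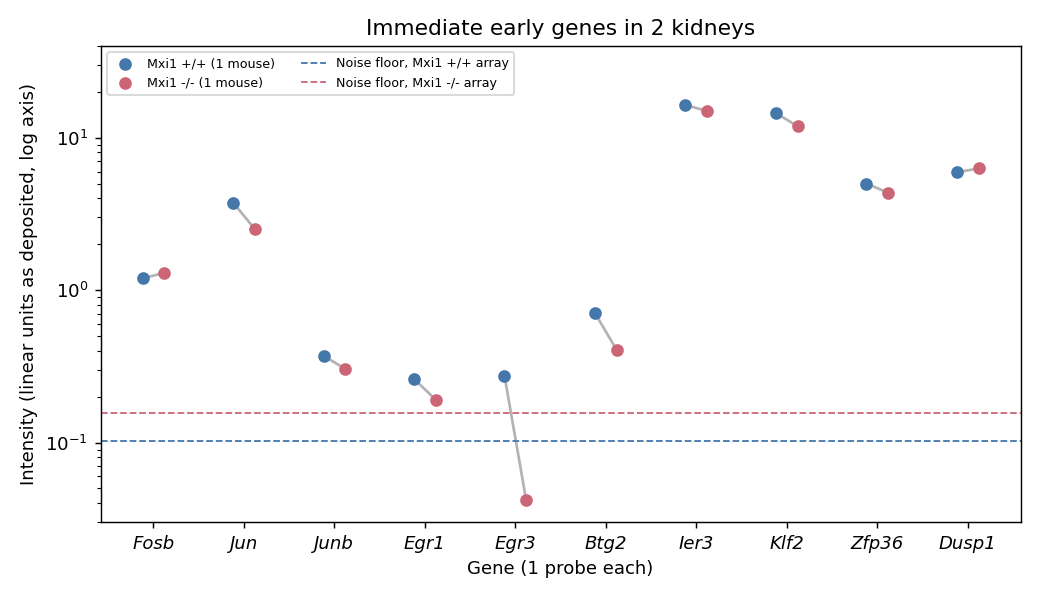
Intensity of each of the 10 genes in the 2 kidneys, in linear units as deposited on a log axis. Blue points are the Mxi1 +/+ mouse, red points the Mxi1 -/- mouse, and dashed lines the noise floors of 0.102 and 0.156. Only Egr3 in Mxi1 -/- lies under its floor, and only Fosb and Dusp1 read higher in Mxi1 -/-.

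Proteins of the FOS and JUN families pair to form the transcription factor AP-1, and 3 members encode such subunits. Jun, whose product is the main JUN partner in AP-1, read 3.75 in Mxi1 +/+ and 2.52 in Mxi1 -/-. This is a 1.49-fold lower value (log2 -0.57, technical SD 0.17), the largest difference among the 6 members at or above the median level and just short of the 1.5-fold line. Of the 500 measured genes nearest to Jun in mean level, 11.4% differed at least as much in either direction. Junb, a second JUN protein, which often restrains the first, read 0.371 and 0.3045, a 1.22-fold lower value (log2 -0.28, technical SD 0.49). Fosb, a FOS partner that remains high after repeated stimulation in brain, went the other way, from 1.19 to 1.30 (1.09-fold, log2 0.12, technical SD 0.17). The Fosb value is smaller than the technical SD, as is that of Junb. Fosb and Jun differed from each other by 0.70 on the log2 scale, 2.94 times the technical SD of a difference between a pair of probes. It was the widest pair among the 6 brighter members. That SD comes from probes of the same gene and does not hold the spread between genes. Among the 500 genes nearest in level, the SD of the log2 differences was 0.58 at Fosb and 0.47 at Jun.

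The EGR zinc finger factors bind GC-rich sites and act early after growth factors. Egr1, the best known of them, read 0.262 in Mxi1 +/+ and 0.191 in Mxi1 -/-, both close to the floors. The 1.37-fold lower value (log2 -0.46) is within the technical SD of 0.49. Egr3 read 0.274 and 0.0417, and the Mxi1 -/- reading lies under the floor. Set against the floor of 0.156, Egr3 was lower with a bound of 1.76-fold, while its measured log2 difference was -2.72. Such a bound, here and below, takes the other array's reading as exact, so it is not a firm minimum. In genes below the median level whatever their floor, the technical SD was 0.96 (40 genes). With its Mxi1 -/- reading set to the floor, the Egr3 difference (log2 -0.83) is within that SD.

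KLF2 is an endothelial and lymphocyte factor that blood flow induces. Klf2 gave readings of 14.5 and 11.9, a 1.22-fold lower value (log2 -0.29, technical SD 0.17). Among its 500 nearest genes in level 24.2% differed at least as much. Those 500 genes had a median log2 difference of -0.08, against -0.29 for Klf2.

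Btg2, a p53-induced gene that slows cell division and helps to shorten mRNA tails, read 0.706 in Mxi1 +/+ and 0.405 in Mxi1 -/-. The value was 1.74-fold lower (log2 -0.80, technical SD 0.49), the largest difference among the 9 members above the floor in both arrays. Of the 500 genes nearest in level 11.4% differed at least as much. Ier3, a stress-induced gene of cell survival, gave close values, reading 16.4 and 14.97 (1.09-fold lower, log2 -0.13). That value is smaller than the technical SD of 0.17.

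The members that switch signals off stayed close together in the 2 kidneys. Zfp36 encodes tristetraprolin, which binds AU-rich mRNAs and speeds their decay, and read 5.004 and 4.35 (1.15-fold lower, log2 -0.20). Dusp1, the phosphatase that removes phosphate from the MAP kinases p38, JNK and ERK, read 5.925 and 6.29 (1.06-fold higher, log2 0.09). The Zfp36 difference is slightly larger than the technical SD of 0.17 and the Dusp1 difference is smaller. At their levels 44.2% and 71.2% of the 500 nearest genes differed at least as much. Jun and Dusp1 differed from each other by -0.66 on the log2 scale (2.80 times the technical SD of such a difference, which does not hold the spread between genes). The 500 genes nearest to Dusp1 in level had an SD of 0.35. No pair of members at or above the median level other than Jun with Fosb or Dusp1 was more than 2 such technical SDs apart.

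**Figure D2:**
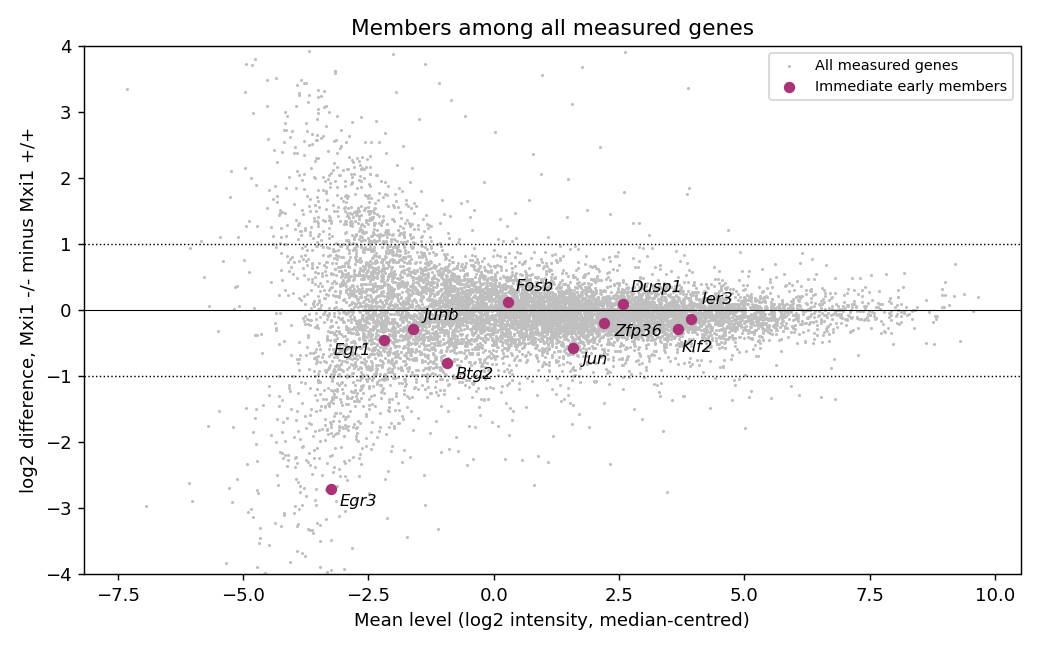
Log2 difference (Mxi1 -/- minus Mxi1 +/+) against mean median-centred log2 level. Grey points are all measured genes (58 lie beyond a log2 difference of 4 and are not drawn), purple points the 10 members, and dotted lines 2-fold. Egr3 is the member past the 2-fold line, at a level where the cloud of all genes is wide.

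The members were also split by level. The 4 members that lie below the median level, Junb, Egr1, Egr3 and Btg2, were all lower, with a median of -0.63, where 49.5% of genes at such levels were lower. At or above the median level 4 of 6 were lower, with a median of -0.17, where 59.9% of genes were lower and the median of all was -0.06. The genes with the pattern nearest to Fosb, the member furthest on the higher side, by distance in the plane of both log2 intensities (2 arrays), were Abcc12, Olfr381 and Nop58. For Egr3, the lowest, they were Foxp4, Olfr976 and Baz1b, each under the floor in Mxi1 -/-.

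Some genes stand in more than 1 of the lists that follow. Of 16 measured subunits and relatives 10 read higher in Mxi1 -/- and 6 read lower (median log2 difference 0.09), where 55.5% of all measured genes were lower. The 8 at or above the median level were split 4 and 4 (median 0.0081), and Fosl1 and Maff, below it, lie under the floor in Mxi1 -/-. Fos itself, the classic partner of Jun, read 0.162 and 0.359, a 2.23-fold higher value (log2 1.15) at a level below the median, where 12.8% of genes were at least 2-fold higher. Fosl2 read 0.199 and 0.311 (1.57-fold higher) and Atf3, a stress-induced relative, 0.345 and 0.428 (1.24-fold higher). Batf2, a relative known from interferon responses, read 0.810 and 1.68 (2.07-fold higher). Its Mxi1 +/+ reading lies below that array's median and its Mxi1 -/- reading above it. Jund, the steadily expressed JUN protein, read 106 and 103 (1.03-fold lower), and Crem, Cebpb and Mafg lay within 1.20-fold. In this pair of kidneys Jun and Junb read lower, Fos, Fosb and Fosl2 read higher, and Jund hardly differed. The Junb and Fosb differences are within the technical SD, and the Fos and Fosl2 readings in Mxi1 +/+ lie close to the floor.

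Other immediate early genes were also split. Of 41 measured genes 25 were higher and 16 lower (median 0.07), with 3 past 2-fold on the higher side (5.77% of all measured genes) and 2 on the lower side (5.59%). Of the 28 at or above the median level 2 were at least 2-fold higher, Irf1 and Gadd45b, as were 32 of all 5737 genes there. Neither lower call is resolved above the floor: Nfkbiz lies under it in both arrays, and Ptgs2 lies under it in Mxi1 -/-, with a bound of at least 1.52-fold. Irf1, an interferon-induced factor, read 4.79 and 12.002 (2.50-fold higher). Gadd45b, a stress sensor, read 0.749 and 1.58 (2.12-fold higher), its Mxi1 +/+ reading below the array median. Lower ones included the orphan receptor Nr4a1, with 1.75 and 1.04 (1.68-fold), the small GTPase Gem, with 2.68 and 1.56 (1.72-fold), and the co-regulator Ifrd1, with 3.13 and 1.86 (1.68-fold). Klf4, a relative of Klf2, was 1.40-fold higher (6.49 and 9.07), Ier2 1.23-fold higher (1.44 and 1.77) and Myc 1.37-fold higher.

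The kinases and factors upstream of the members were lower in 14 of 21 measured genes (median -0.11), against 55.5% of all measured genes. None of the 12 at or above the median level passed 1.5-fold (7.67% of all genes there). The largest differences were below that level: Elk1, a partner of SRF at the CArG box, read 0.193 and 0.592 (3.06-fold higher), and Mapk8, a JNK kinase, 0.325 and 0.163 (1.99-fold lower). Srf, the factor that binds the CArG box, read 0.995 and 1.04. Mapk9, another JNK kinase, was 1.41-fold lower (2.42 and 1.71) and the GTPase Nras 1.40-fold lower (2.14 and 1.53). Mapk12 and the receptor Egfr were 1.22-fold and 1.21-fold lower.

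Feedback inhibitors were lower in 12 of 20 (median -0.10), where 55.5% of all measured genes were lower. Dusp6, the ERK phosphatase and a relative of Dusp1, read 5.74 and 3.595 (1.60-fold lower), and was the 1 gene of the 13 at or above the median level past 1.5-fold, against 7.67% of all genes there. Socs3, a cytokine-signal inhibitor below that level, read 0.307 and 0.762 (2.49-fold higher). The receptor-kinase inhibitor Spry2 was 1.43-fold lower (1.73 and 1.21) and Nfkbia, the inhibitor of NF-kB, 1.34-fold lower (37.5 and 27.9). Tnfaip3, another brake on NF-kB, was 1.47-fold higher (2.30 and 3.37).

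In the BTG and TOB list 5 of 6 were lower (median -0.13) and none passed 1.5-fold. Of all measured genes 55.5% were lower and 11.9% at least 1.5-fold lower. The brighter genes of that list were Tob1 (1.16-fold lower), Btg3 (1.04-fold lower), the deadenylase subunits Cnot7 (1.24-fold lower) and Cnot8 (1.01-fold lower), and the methyltransferase Prmt1 (1.30-fold higher). In the mRNA decay list 6 of 9 were lower (median -0.15), and 1 passed 1.5-fold. This was the AU-rich binder Elavl1, which read 1.17 and 0.696 (1.68-fold lower). It lies below the median level, where 20.8% of genes were at least 1.5-fold lower. The Zfp36 relative Zfp36l1 read 12.4 and 11.2 (1.11-fold lower), Cnot1 was 1.14-fold higher and another such binder, Hnrnpd, 1.07-fold higher.

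Lists of genes known as targets of these factors had medians between -0.19 and 0.13. Of 14 AP-1 targets 10 were lower (median -0.19), among them all 6 of the brighter ones, at or above the median level (median -0.44). For this and the other target lists, 55.5% of all measured genes were lower. At or above the median level 59.9% of all genes were lower, with a median of -0.06. The heme-degrading enzyme Hmox1 read 17.3 and 9.80 (1.77-fold lower), the growth factor Hbegf 2.45 and 1.73 (1.42-fold lower), the cyclin Ccnd1 4.35 and 3.15 (1.38-fold lower) and the galectin Lgals1 28.001 and 20.9 (1.34-fold lower). The list's 2 genes past 2-fold were both higher and below the median level, where 12.8% of genes were at least 2-fold higher. Il6 read 0.370 and 1.14 (3.08-fold), and Mmp3, under the floor in Mxi1 +/+, was higher with a bound of 3.07-fold. Other factors also control these genes. EGR1 targets were higher in 7 of 13 (median 0.02), with Vegfa 1.29-fold, Pdgfa 1.27-fold, Nab1 1.22-fold and Pdgfb 1.19-fold lower. Of 17 mRNAs known as targets of tristetraprolin 8 were higher and 9 lower (median -0.11, which changed sign under 1 of 6 alternatives of processing). In that list 8 genes passed 2-fold (5 higher, 3 lower), all below the median level, where 24.1% of genes were past 2-fold. Of these, Ccl20 lies under the floor in both arrays, and Il10 and Ptgs2 lie under it in Mxi1 -/-, with bounds of at least 1.86-fold and 1.52-fold. KLF2 targets of endothelium were higher in 5 of 9 (median 0.13), with the vascular receptors Kdr 1.30-fold higher and Tek 1.28-fold lower. That count does not separate genes that KLF2 raises from genes that it lowers. Only 3 of the 9 lie at or above the median level. S1pr1, under the floor in Mxi1 +/+, was higher with a bound of 1.89-fold. Of the 14 p53 targets, which in cells include Btg2, 9 were higher (median 0.07). At or above the median level Perp, Pmaip1 and Ccng1 were 1.57-fold, 1.33-fold and 1.31-fold lower, and Gadd45a 1.27-fold higher.

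**Figure D3:**
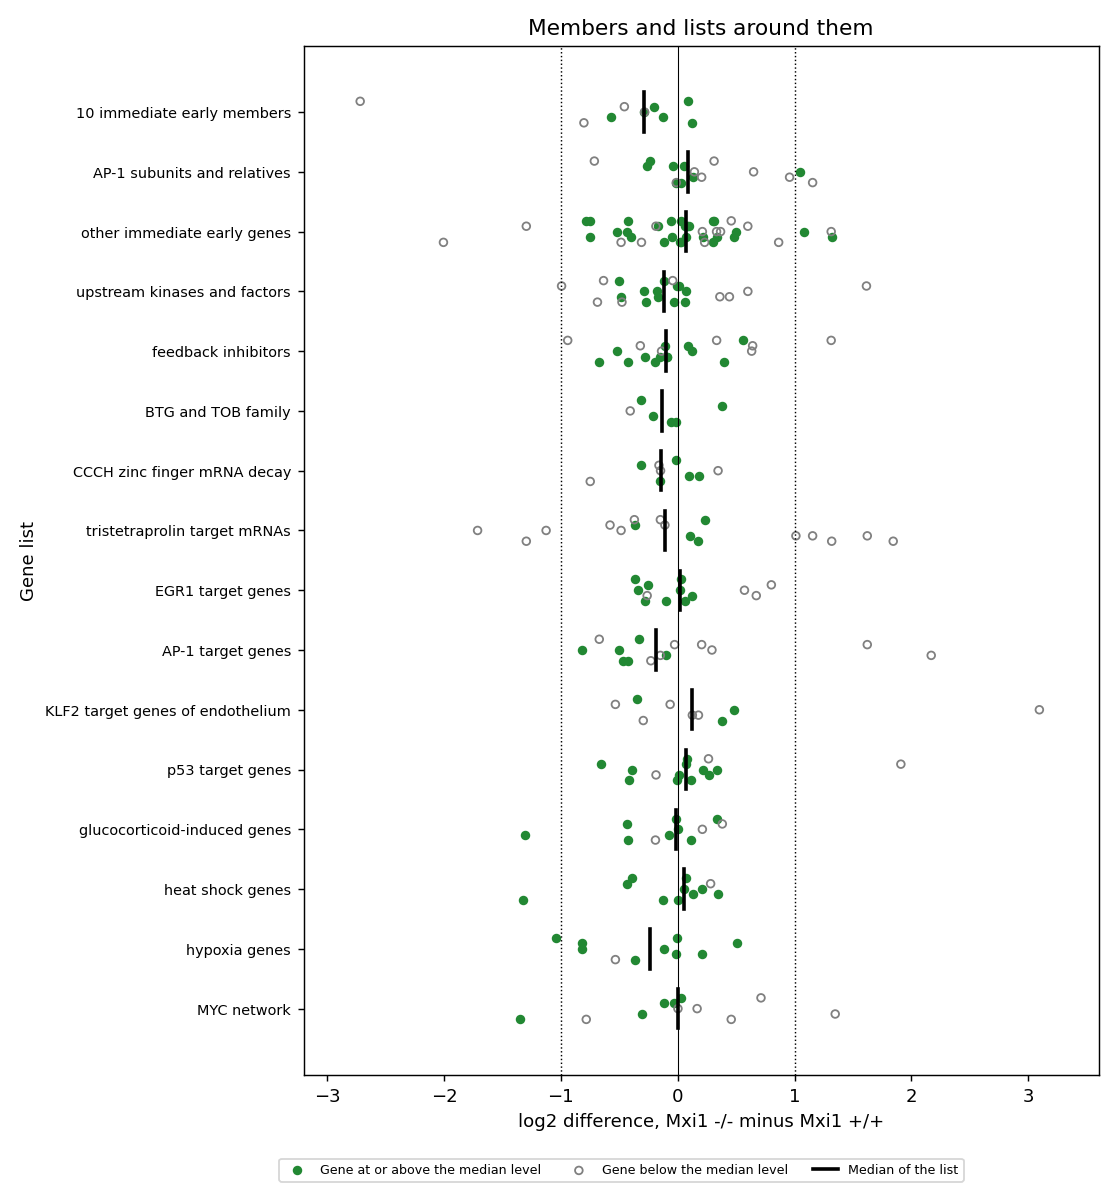
Log2 difference (Mxi1 -/- minus Mxi1 +/+) of each measured gene in the 10 members and in the lists around them. Filled points are genes at or above the median level, open points genes below it, and black bars the list medians. Member points lie mostly left of 0, AP-1 relatives and other immediate early genes lie on both sides, and dotted lines mark 2-fold.

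Lists that follow handling, stress hormones or oxygen supply were read beside the members, since each can raise immediate early genes. Glucocorticoid-induced genes had a median of -0.02 over 11, a sign kept under 4 of 6 alternatives, with Angptl4, which fat and other tissues also make, 2.47-fold, Sgk1 1.35-fold and Nfkbia 1.34-fold lower and Klf9 1.26-fold higher. Heat shock genes had a median of 0.06 over 11, with Cryab 2.51-fold, Hsph1 1.35-fold and Dnajb1 1.31-fold lower and Hspb1 1.27-fold higher. Hypoxia genes were lower in 8 of 10 (median -0.24), where 55.5% of all measured genes were lower. Aldoa was 2.05-fold, Hmox1 1.77-fold and Ndrg1 1.76-fold lower and Bnip3 1.42-fold higher. The part of dissection time, stress or oxygen in the member readings was not tested.

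Markers of the tissue were present in both arrays, and some markers of other cells differed between the kidneys. All 8 measured proximal tubule markers read above the floor in both. Their summed intensity was 905 in Mxi1 +/+ and 1203 in Mxi1 -/-. Nearly all of that rise came from Napsa, which read 473 and 770. In the tubule list 5 markers were higher and 3 lower (list median 0.06 on the log2 scale). Adipocyte markers were lower in 7 of 7 measured genes (summed 255 and 88.2, Ucp1 under the floor in Mxi1 -/-), though Lep hardly differed (4.86 and 4.83). Stratified epithelium and urothelium markers were lower in 8 of 9 (summed 43.2 and 18.8, Trp63 under the floor in Mxi1 -/-). In that list Krt5 was 4.82-fold and Sprr1a 5.03-fold lower, but Upk2 only 1.32-fold lower and Upk1b 1.02-fold higher. Of all measured genes 55.5% were lower. Macrophage markers were higher in 6 of 7 (summed 41.6 and 55.6, none under the floor). Endothelial markers were split 4 and 4 (summed 61.7 and 58.0, none under the floor), with Emcn 1.73-fold and Tek 1.28-fold lower and Kdr 1.30-fold and Ehd3 1.12-fold higher. The list's only gene past 2-fold was Pecam1, which read 1.43 and 0.555 (2.57-fold lower). It lies below the median level, where 24.1% of genes were past 2-fold in either direction. Smooth muscle and renin cell markers were split 3 and 3 (summed 49.4 and 38.7). Those lower were Cnn1 (2.96-fold), Myh11 (1.75-fold) and Acta2 (1.44-fold), and the largest difference on the higher side was Pdgfrb (1.58-fold). At or above the median level this list had 3 lower and 2 higher genes (median -0.53). Several members are transcribed in fat, epithelium and immune cells as well as in tubules, and the part of cell makeup in their readings was not tested. In whole kidney RNA, fewer cells of a type and less RNA per cell cannot be told apart. Mxi1 itself read 4.31 and 1.69 (2.54-fold lower in the library labelled Mxi1 -/-).

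**Figure D4:**
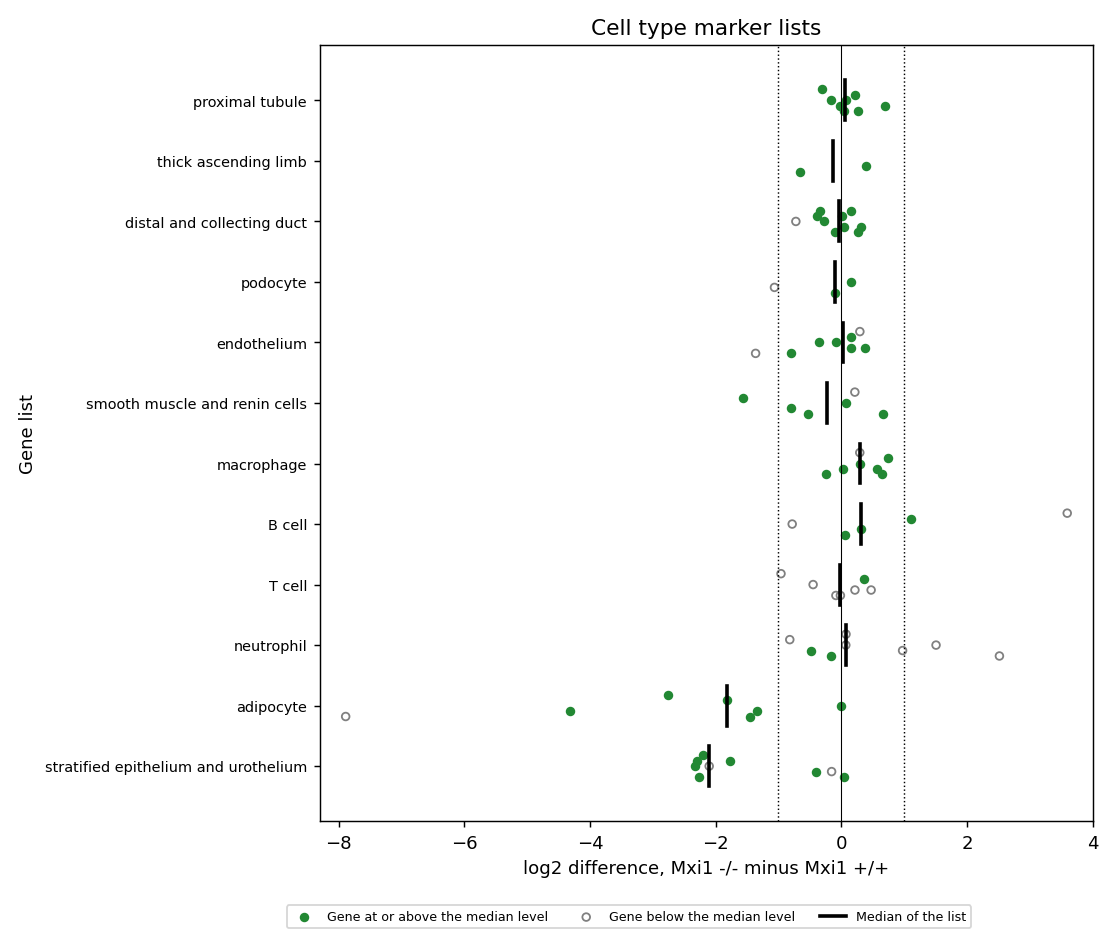
Log2 difference (Mxi1 -/- minus Mxi1 +/+) of cell type marker genes, with filled points at or above the median level, open points below it, and black bars at list medians. Most markers in the adipocyte list and in the stratified epithelium and urothelium list lie far to the left, with list medians of -1.83 and -2.10. Proximal tubule and endothelial markers centre near 0.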

How the data were processed

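Kidney RNA of 1 Mxi1 +/+ and 1 Mxi1 -/- mouse was measured on 1 array each. Column-extracted total RNA was DNase-treated and turned into amplified biotin-labelled cRNA for CodeLink arrays, per the labels' protocols. The deposited values are linear intensities of 20289 probes on each array. Their background correction and normalization are not stated in the labels or the table. The code -9999 was read as missing (60 and 39 values). Array medians were 0.929 and 0.935.

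Probes were named through the platform annotation (10349 named probes, all matched to RefSeq gene identifiers). Intensities above 0 in both arrays (19663 probes) were log2-transformed with no pseudocount and centred on each array's median. A gene took its brightest probe. The difference is Mxi1 -/- minus Mxi1 +/+. Fold lines of 2 and 1.5 are rules of size. Background shares used the same lines over all measured genes. The members and the 27 lists were chosen with earlier results of these data known. Named genes are the members, Mxi1 and a fixed set of relatives (Fos, Jund, Fosl2, Atf3, Nr4a1, Ier2, Klf4, Dusp6, Zfp36l1, Srf and Myc among those measured). From each list up to 4 genes at or above the median level with the largest difference were also named. Cnot8, Elavl1, Elk1, Mapk8, Socs3, Il6, Pecam1 and the genes under the floor were named after their values were seen. The procedure was tested on simulated data. Other settings tried were uncentred values, quantile and lowess normalization, a pseudocount, averaged probes, a noise floor, other fold lines and other level filters. The work used NumPy 2.4.6, pandas 2.3.3, statsmodels 0.14.6 and matplotlib 3.10.9 under Python 3.11.15.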

Additional observations from a re-analysis of the deposited data

How the results depend on the processing

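All 10 members kept their direction under each of the 6 alternatives of centring, normalization, pseudocount, probe averaging and noise floor, so 8 were lower and 2 higher each time. Probe averaging could not change a member, since each has 1 probe. Leaving out the centring could hardly do so, since the centring shift between the arrays was only -0.0007 (log2). The pseudocount could hardly turn a direction, since the added array medians were nearly equal (0.929 and 0.935). Among the members the noise floor replaced only the Egr3 reading in Mxi1 -/-. The value set there, 0.156, is still below the Mxi1 +/+ reading of 0.274. The kept directions therefore say something mainly for quantile and lowess normalization. Jun stayed between -0.59 and -0.44 (log2), Klf2 between -0.30 and -0.22, Fosb between 0.07 and 0.12 and Dusp1 between 0.07 and 0.15. With the array median added to each reading before log2, which shrinks differences of low readings by construction, Egr3 moved from -2.72 to -0.30 and Btg2 from -0.80 to -0.29. With values under the noise floor set to it, Egr3 moved to -0.83. The count of members past 2-fold, 1 as reported, was 0 under both of these and 2 at 1.5-fold. The median over the members was -0.28 and ranged from -0.30 to -0.15 over those 6 alternatives. The number of genes at or above the median level past 2-fold, 112 as reported, was 69 with the pseudocount, 440 at 1.5-fold, 1134 without a level filter and 45 at the 75th percentile of level. The medians of the tristetraprolin target and glucocorticoid lists changed sign under 1 and 2 of the 6, up to 0.04 and 0.02. No paired analysis was possible because each genotype has 1 mouse. For the same reason no replicate could be left out. Readings near the noise floor limit what can be said of Junb, Egr1 and Egr3.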
